A study of Mus musculus with 5 samples.

Results

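The genes described here are 10 transcripts of antigen-presenting and myeloid cells, measured in sorted thymic T cells. They are 4 genes of the major histocompatibility complex (MHC) class II pathway (*Cd74*, *H2-Aa*, *H2-Ab1* and *H2-Eb1*), 4 genes of myeloid cells (*Lyz2*, *Csf1r*, *Itgax* and *Spi1*) and 2 signaling adaptors (*Fcer1g* and *Tyrobp*). They were chosen as genes known to mark these cells, with earlier results of these data known, and matched by symbol to the mouse GRCm38 annotation, and *Fcer1g* and *Tyrobp* were kept apart because T cells with innate features can express them. They are 10 of the 55487 genes counted, and 9 of them passed the filter on low counts that left 13525 genes for the test.

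The study asked how loss of TET2 and TET3, enzymes that oxidize methylated cytosines in DNA, changes gene expression in CD4 single positive (CD4 SP) thymocytes. RNA was sequenced from 3 wild type (WT) mice and from 2 mice of genotype Tet2-/-Tet3flx/flxCD4cre (*Tet2/3* DKO), all of strain C57BL/6J and around weaning age, with 1 library per mouse. The cells were live, low for CD24, positive for CD4 and TCRβ, and negative for CD8 and for the αGalCer-loaded CD1d tetramer, so that iNKT cells were gated out. In the *Tet2/3* DKO mice, *Tet2* is disrupted in every cell of the body, whereas *Tet3* is deleted by a Cre recombinase driven by *Cd4* regulatory elements. Non-T cells of these mice therefore lack TET2 but, unless they expressed the Cre, keep TET3. No Cre or floxed allele is named for the WT mice.

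MHC class II molecules are heterodimers that present peptides to CD4 T cells. *H2-Aa* and *H2-Ab1* encode the alpha and beta chains of I-A, *H2-Eb1* encodes the beta chain of I-E, and C57BL/6 mice lack a functional I-E alpha chain. *Cd74* encodes the invariant chain, which fills the groove of a new class II dimer and guides it to the endosome, where H2-DM loads the peptide. Dendritic cells, B cells, macrophages and thymic epithelial cells express class II constitutively under the coactivator CIITA, and mouse T cells largely do not. *Lyz2* encodes lysozyme, *Csf1r* the receptor for the growth factor of macrophages, *Itgax* the integrin CD11c of dendritic cells, and *Spi1* the transcription factor PU.1, which drives myeloid and B cell fates and is shut off as thymocytes commit to the T lineage. *Fcer1g* and *Tyrobp* encode FcRγ and DAP12, small transmembrane adaptors whose ITAM motifs signal for Fc receptors, NK receptors and other activating receptors in myeloid, NK and innate-like T cells.

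Class II genes share a promoter architecture in which an X box, bound by the RFX complex, lies upstream of a Y box, bound by NF-Y. The promoters of *H2-Aa* and *H2-Eb1* are shown because these chains had similar profiles over the libraries. They are the 120 bases before the RefSeq start sites (GRCm38.p6, 5′ to 3′ on the strand of the gene), at chr17:34287824-34287943 on the minus strand for *H2-Aa* and at chr17:34305747-34305866 on the plus strand for *H2-Eb1*. Capitals mark first the X box letters CTNGCAAC and then the Y box letters CTGATTGG.
H2-Aa: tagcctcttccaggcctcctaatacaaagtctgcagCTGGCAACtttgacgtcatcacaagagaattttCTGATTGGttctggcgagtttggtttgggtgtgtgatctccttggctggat
H2-Eb1: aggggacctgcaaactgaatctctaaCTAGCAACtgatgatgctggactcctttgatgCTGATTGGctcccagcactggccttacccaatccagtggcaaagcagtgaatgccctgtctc

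The X box letters began 84 bases before the start in *H2-Aa* and 94 bases before it in *H2-Eb1*, and 25 and 24 bases, respectively, separated them from the Y box letters. Both motifs were searched on both strands, without overlap between them, and the letters were settled after these promoters had been read. Windows of 300 bases around 32851 RefSeq starts held the X box letters in 3.42% of cases, the Y box letters in 4.1% and both in 0.18%, which is 59 windows. Of 10 class II genes, 8 had a window. Besides *H2-Aa* and *H2-Eb1*, the window of *H2-Eb2* held both sets of letters, in the other order, that of *H2-Ob* held the X box letters and that of *H2-Oa* the Y box letters. The windows of *H2-DMa*, *H2-DMb1* and *H2-DMb2* held neither. *Cd74*, *H2-Ab1*, *Csf1r*, *Spi1* and *Tyrobp* had no entry in the promoter table.

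Between 17607089 and 27267031 reads were counted on genes per library. *Tet3* was at 43.8 to 52.5 CPM (counts scaled to the depth of the library) in the WT libraries against 20.0 and 13.1 CPM in the *Tet2/3* DKO libraries, with a fitted log2 fold change of -1.5 ± 0.18 (edgeR adjusted p = 0.0012). *Tet2* was not lower (log2 fold change 0.46, edgeR adjusted p = 0.135). T cell identity was plain in every library, with *Cd3g*, *Cd3d* and *Trac* at 1242 CPM or more, and 3 of 15 T cell markers fell (*Cd4*, *Cd5* and *Cd6*) at an edgeR adjusted p of 0.01, where 1.5% of all genes fell and 2.42% rose. None of the 15 rose at that threshold. Both *Tet2/3* DKO libraries lay above every WT library for 2 of the 15 (19.6% of all genes), *Thy1* (log2 fold change 0.81, edgeR adjusted p = 0.0224) and *Trbc1* (0.30, 0.0583). They lay below every WT library for 7 of the 15 (19.5% of all genes). *Trbc2* was at 0.07 (edgeR adjusted p = 0.664). The labels of sex were at odds with the reads in 2 libraries. WT library 1, labelled female, had 0 *Xist* counts and 6821 counts on Y-linked genes, and *Tet2/3* DKO library 1, labelled male, had 744 *Xist* counts and 7 on Y-linked genes. The other 3 libraries, labelled male, had 5101 to 7041 Y-linked counts and at most 2 *Xist* counts. The results for the 10 genes are therefore given with and without these 2 libraries. Of the other genes named in the text, 25 passed the threshold, *Tet3* and 4 of the genes with similar profiles (*Nt5e*, *Bmf*, *Pla2g2d* and *5830411N06Rik*) included, and all 25 passed in the same direction without them. Leaving them out leaves a single *Tet2/3* DKO library, whose spread is taken from the WT libraries. Leaving out 1 WT library lowered the number of genes called from 530 to 152, 110 and 127 (WT libraries 1, 2 and 3), and *Cd4* and, without WT library 2 or 3, *Tet3* then missed the threshold. So did *Nt5e* and *Pla2g2d* without any 1 WT library, *Bmf* without WT library 2 or 3, and *5830411N06Rik* without WT library 1 or 2.

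Among the class II chains, *Cd74* (chr18:60803848-60812652) was by far the most abundant and differed little between genotypes. It was at 63.6, 56.7 and 87.5 CPM in WT libraries 1 to 3, against 74.0 and 100 CPM in *Tet2/3* DKO libraries 1 and 2. The groups overlapped, since WT library 3 lay above *Tet2/3* DKO library 1. The means were 69.3 ± 16.2 CPM (SD, n = 3) and 87.1 ± 18.5 CPM (SD, n = 2), with a fitted log2 fold change of 0.33 ± 0.19 (SE, edgeR adjusted p = 0.357).

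The other 3 chains, *H2-Aa*, *H2-Ab1* and *H2-Eb1*, were much lower and were high in 1 *Tet2/3* DKO library. *H2-Ab1* (chr17:34257689-34269419) was at 4.53, 5.98 and 4.48 CPM in the WT libraries against 5.72 and 26.5 CPM in the *Tet2/3* DKO libraries. Its log2 fold change was 1.66 ± 0.52 (edgeR adjusted p = 0.0881). *H2-Aa* (chr17:34282744-34287823) was at 3.56, 5.18 and 1.93 CPM in the WT libraries against 2.48 and 13.1 CPM in the *Tet2/3* DKO libraries, with a log2 fold change of 1.11 ± 0.60 (edgeR adjusted p = 0.323). For both I-A chains, *Tet2/3* DKO library 1 lay within the WT range and library 2 above it.

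*H2-Eb1* (chr17:34305867-34316674) had the same arrangement, at 2.86, 2.99 and 1.89 CPM in the WT libraries against 2.38 and 8.67 CPM in the *Tet2/3* DKO libraries (log2 fold change 1.06 ± 0.49, edgeR adjusted p = 0.235). Summed over the 3 chains, the WT libraries had 8.31 to 14.2 CPM, *Tet2/3* DKO library 1 had 10.6 CPM and library 2 had 48.3 CPM. The ratio of *Tet2/3* DKO library 2 to library 1 was 4.64 for *H2-Ab1* (95% interval 3.79 to 5.71), 5.30 for *H2-Aa* (3.91 to 7.31) and 3.64 for *H2-Eb1* (2.63 to 5.11), against 1.35 for *Cd74* (1.26 to 1.45). These intervals are exact binomial ones and cover counting error only, because the libraries carry no molecular identifiers. With 1 mouse on each side, the difference between the *Tet2/3* DKO libraries has no replicate check. By *Xist* and Y-linked counts library 1 is from a female and library 2 from a male, so that in every comparison of these libraries sex and mouse cannot be told apart.

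Without *Tet2/3* DKO library 2 the log2 fold changes were -0.51 for *H2-Aa*, 0.19 for *H2-Ab1* and -0.12 for *H2-Eb1*, and without *Tet2/3* DKO library 1 they were 1.91, 2.41 and 1.76, each then past an edgeR adjusted p of 0.01. The direction of *H2-Aa* and *H2-Eb1* thus rested on *Tet2/3* DKO library 2. In bulk RNA, more cells of a type and more RNA per cell cannot be told apart.

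**Figure D1:**
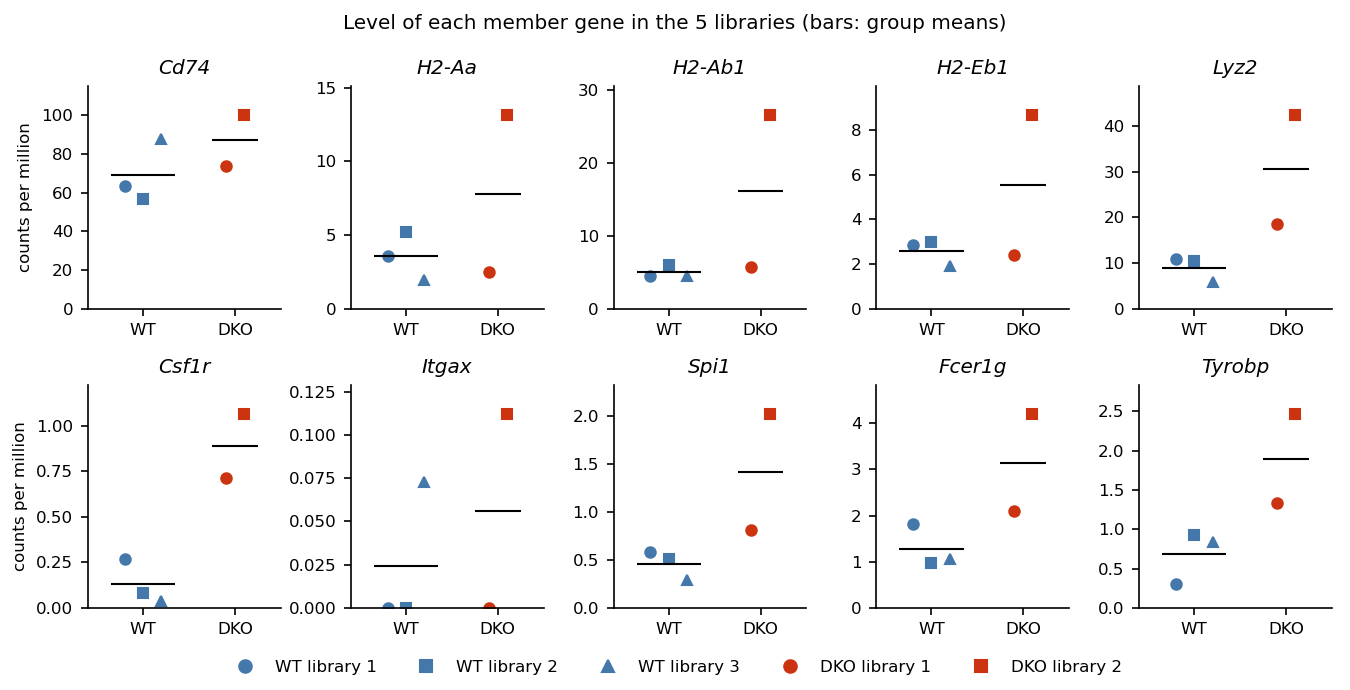
Level of each of the 10 genes in CPM (vertical axes, each from 0) in the 3 WT libraries (blue) and the 2 *Tet2/3* DKO libraries (red), with symbols for library numbers and bars for group means. *H2-Aa*, *H2-Ab1* and *H2-Eb1* are high in *Tet2/3* DKO library 2 alone, whereas both *Tet2/3* DKO libraries lie above every WT library for *Lyz2*, *Csf1r*, *Spi1*, *Fcer1g* and *Tyrobp*.

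The myeloid genes were arranged differently, with both *Tet2/3* DKO libraries above the WT range for the 3 that could be tested. *Lyz2* (chr10:117277331-117282321) was at 10.8, 10.4 and 5.83 CPM in the WT libraries against 18.6 and 42.5 CPM in the *Tet2/3* DKO libraries. The mean was 9.00 ± 2.75 CPM (SD, n = 3) in WT and 30.5 ± 16.9 CPM (SD, n = 2) in *Tet2/3* DKO cells. The log2 fold change of 1.76 ± 0.35 did not pass the threshold of 0.01 (edgeR adjusted p = 0.0142).

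*Spi1* (chr2:91082390-91115756) had 15, 12 and 8 counts in the WT libraries against 17 and 36 in the *Tet2/3* DKO libraries, with a fitted log2 fold change of 1.58 ± 0.54 (edgeR adjusted p = 0.114). These counts correspond to 0.29 to 0.58 CPM in WT against 0.81 and 2.01 CPM in *Tet2/3* DKO cells. *Csf1r* (chr18:61100598-61132149) had 7, 2 and 1 counts in the WT libraries against 15 and 19 in the *Tet2/3* DKO libraries, with a fitted log2 fold change of 2.7 ± 0.65 (edgeR adjusted p = 0.0294). Both genes were thus higher in each *Tet2/3* DKO library than in any WT library, at very low levels. *Spi1* was at 2.13 without *Tet2/3* DKO library 1 (edgeR adjusted p = 0.0108) and at 0.81 without library 2 (0.446), and *Csf1r* at 2.98 (0.0194) and 2.4 (0.0712), respectively. *Csf1r* was at 3.78 without WT library 1, and its adjusted p was 0.135 and 0.118 without WT library 2 and 3.

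*Csf1r* shares 873 of its 5774 exonic bases with *Hmgxb3* on the opposite strand, and counting took no account of strand, so reads of that stretch were left out of the counts above. When each strand was counted apart and the strands were added, the stretch entered and *Csf1r* had 119, 70 and 107 counts in WT against 106 and 77 in *Tet2/3* DKO libraries, with a log2 fold change of 0.30 (edgeR adjusted p = 0.567). Since the libraries do not mark strand, reads of *Hmgxb3* in the shared bases can enter these counts. The value of 0.30 is therefore not a measure of *Csf1r* alone. *Itgax* (chr7:128129547-128150657) had 0, 0 and 2 counts in the WT libraries against 0 and 2 in the *Tet2/3* DKO libraries, was not tested and is at or under the limit of 3 counts that a count of 0 allows. CD11c reads were thus too few in either genotype to compare. *Lyz2* passed the threshold of 0.01 without *Tet2/3* DKO library 1 (log2 fold change 2.25) and without library 2 (1.04, edgeR adjusted p = 0.00873), whereas its adjusted p was 0.044, 0.0744 and 0.0794 without WT library 1, 2 and 3, so that it missed 0.05 in the last 2 cases.

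The ITAM adaptors lay above the WT range in both *Tet2/3* DKO libraries. *Fcer1g* (chr1:171229572-171234365) had 47, 23 and 29 counts in the WT libraries against 44 and 75 in the *Tet2/3* DKO libraries. After scaling for depth these were 1.82, 0.97 and 1.06 CPM in WT against 2.10 and 4.20 CPM in *Tet2/3* DKO cells, with a fitted log2 fold change of 1.26 ± 0.42 (edgeR adjusted p = 0.108). *Tet2/3* DKO library 1 lay only a little above WT library 1.

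*Tyrobp* (chr7:30413760-30417585) had 8, 22 and 23 counts in the WT libraries against 28 and 44 in the *Tet2/3* DKO libraries. After scaling, WT libraries were at 0.31, 0.93 and 0.84 CPM, below the 1.33 and 2.46 CPM of the *Tet2/3* DKO libraries, and the log2 fold change was 1.43 ± 0.49 (edgeR adjusted p = 0.116). Within *Tet2/3* DKO cells, library 2 exceeded library 1 by a factor of 2.0 for *Fcer1g* (95% interval 1.36 to 2.97) and 1.84 for *Tyrobp* (1.12 to 3.08). Without *Tet2/3* DKO library 1 the log2 fold changes were 1.7 for *Fcer1g* and 1.83 for *Tyrobp*, and without library 2 they were 0.69 and 0.94.

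Taking the 10 genes together, 0 of the 9 tested passed an edgeR adjusted p of 0.01, where 3.92% of all tested genes did (530 of 13525, with 2.42% higher and 1.5% lower in *Tet2/3* DKO cells). DESeq2 also called 0 of the 9, against 6.91% of the genes it tested. At an edgeR adjusted p of 0.05, 2 of the 9 passed (*Lyz2* and *Csf1r*), both higher in *Tet2/3* DKO cells, against 8.67% of all genes in either direction and 5.19% that were higher. *Csf1r* missed 0.05 with DESeq2 (adjusted p = 0.0914), with the replicate number as a block (edgeR adjusted p = 0.0988) and with the legacy dispersion of edgeR (0.0505), and *Lyz2* missed it with robust dispersion moderation (0.0803). At an unadjusted edgeR p of 0.05, 6 of the 9 passed, all higher in *Tet2/3* DKO cells, against 12.4% of all genes that were higher at that level. All 9 had a fitted log2 fold change above 0, as did 51.1% of all genes, and their median was 1.43, against 0.0076 over all genes. *Csf1r* reached the filter's minimum of 10 counts, scaled for depth, in the *Tet2/3* DKO libraries only, so that its direction and its place in these counts were partly fixed by the filter. Without it the counts are 1 of 8 at an adjusted p of 0.05 and 5 of 8 at an unadjusted p of 0.05, with a median of 1.34.

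Both *Tet2/3* DKO libraries lay above every WT library for 5 of the 9 genes, the 3 tested myeloid genes and the 2 adaptors (4 of 8 without *Csf1r*), whereas this held for 19.6% of all genes. The 4 class II chains overlapped between genotypes. *Tet2/3* DKO library 2 was at least 2 times library 1 for 6 of the 9 genes and for 6.07% of all genes.

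The number past the threshold depended on the *Tet2/3* DKO libraries. It was 5 without *Tet2/3* DKO library 1, where 9.13% of all genes passed, 1 without library 2 (8% of all genes) and 0 without any 1 WT library. Without the 2 libraries at odds with their label of sex, 7 of the 9 genes passed, against 9.55% of all genes, with log2 fold changes of 1.91 for *H2-Aa*, 2.34 for *H2-Ab1*, 1.83 for *H2-Eb1*, 2.40 for *Lyz2*, 4.05 for *Csf1r*, 2.34 for *Spi1* and 2.03 for *Fcer1g*. *Cd74* (0.46, edgeR adjusted p = 0.0465) and *Tyrobp* (1.47, edgeR adjusted p = 0.0324) did not. In that comparison the *Tet2/3* DKO group is library 2 alone, and genotype and that single mouse cannot be told apart.

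**Figure D2:**
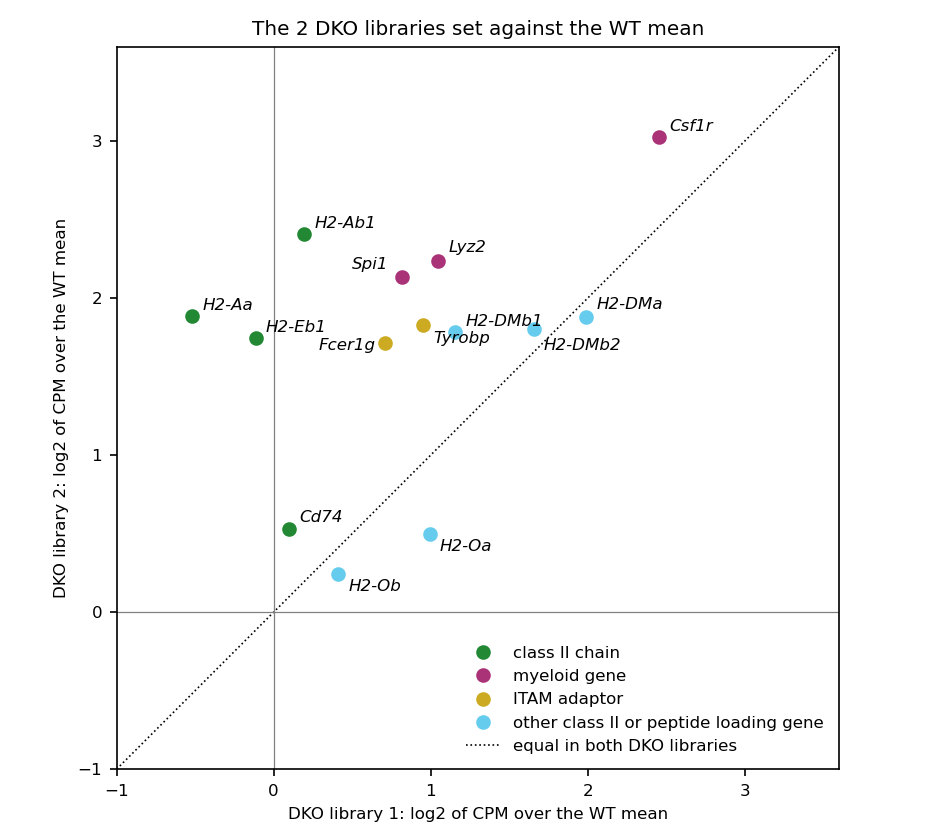
Log2 of the CPM in *Tet2/3* DKO library 1 (horizontal axis) and library 2 (vertical axis) over the WT mean, for the 9 tested genes and for 5 of the 6 other class II and peptide loading genes (*H2-Eb2*, with 1 count in WT cells, is left out). *H2-Aa*, *H2-Ab1* and *H2-Eb1* lie near 0 for library 1 and high for library 2. The myeloid genes and adaptors are above 0 for both, and *H2-DMa* and *H2-DMb2* lie near the dotted line of equal change.

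The other genes of the class II pathway were higher in both *Tet2/3* DKO libraries, and 3 of 6 passed the threshold, against 3.92% of all genes. Among them, *H2-Eb2* reached the filter in the *Tet2/3* DKO libraries only, and without it 2 of 5 passed. *H2-DMa*, the alpha chain of the peptide loading molecule H2-DM, was at 109, 98.2 and 113 CPM in the WT libraries against 423 and 392 CPM in the *Tet2/3* DKO libraries. It rose by a log2 fold change of 1.94 ± 0.09 (edgeR adjusted p = 5.51e-06). *H2-DMb2*, a beta chain of H2-DM, was at 5.49, 5.06 and 4.88 CPM in WT against 16.2 and 18.0 CPM in *Tet2/3* DKO cells, and rose by 1.73 ± 0.17 (edgeR adjusted p = 0.000444). Neither gene differed much between the *Tet2/3* DKO libraries, whose ratio was 0.93 and 1.11, respectively.

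*H2-Eb2*, a class II beta chain gene next to *H2-Eb1*, had 1, 0 and 0 counts in the WT libraries against 19 and 28 in the *Tet2/3* DKO libraries. It passed the threshold (edgeR adjusted p = 0.00394), and with 1 count in all WT libraries the ratio of the pooled groups was 93.2 with a 95% counting interval of 15.9 to 3758. It missed the threshold when any 1 WT library was left out (edgeR adjusted p = 0.0207 to 0.0255). The remaining genes were above every WT library but did not pass the threshold. Their log2 fold changes were 1.47 for *H2-DMb1* (edgeR adjusted p = 0.03), 0.77 for *H2-Oa* (0.0206) and 0.33 for *H2-Ob* (0.108), the last 2 encoding H2-DO, which restrains H2-DM.

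All 6 genes, and none of the 4 chains above, thus had both *Tet2/3* DKO libraries above the WT libraries, which held for 19.6% of all genes. *H2-DMa* and *H2-DMb2* passed the threshold whichever library was left out, with log2 fold changes of 1.88 to 1.98 for *H2-DMa* and of 1.64 to 1.80 for *H2-DMb2*. *H2-DMb1* was at 1.76 without *Tet2/3* DKO library 1 (edgeR adjusted p = 0.002) and at 1.12 without library 2 (0.0567). *H2-DMa* shares 360 of its 3448 exonic bases with a gene on the opposite strand, and its log2 fold change was 1.93 with the strands counted apart and added.

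**Figure D3:**
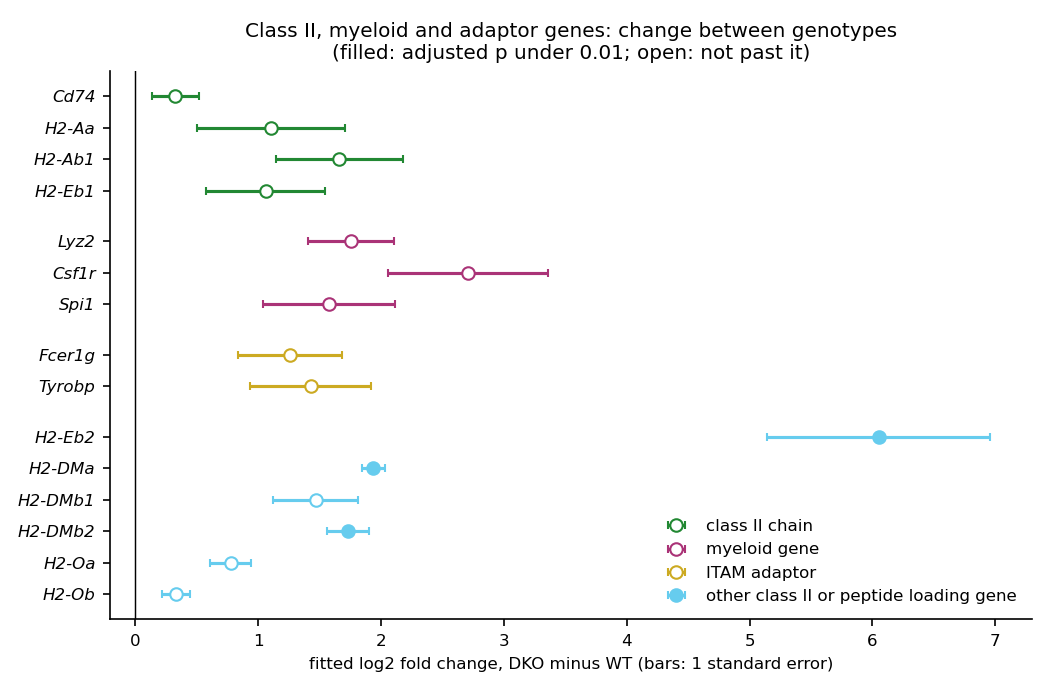
Fitted log2 fold change, *Tet2/3* DKO minus WT, with bars of 1 standard error, for the 9 tested genes and the 6 other class II and peptide loading genes, colored by group. Filled points passed an edgeR adjusted p of 0.01, and these are *H2-Eb2*, *H2-DMa* and *H2-DMb2* only.

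No change was called in the factors that act on the X and Y boxes. Of 8 such genes, 0 passed the edgeR test at an adjusted p of 0.01 (3.92% of all genes) and 0 had an unadjusted p under 0.05 (23%). DESeq2 called 0, against 6.91% of the genes it tested. All 8 overlapped between genotypes, where 19.6% of all genes lay above and 19.5% below every WT library. With so few genes, 0 past the threshold is near the share over all genes. *Nfyb*, *Nfyc* and *Rfxap*, the most abundant, were at log2 fold changes of 0.05, 0.05 and -0.01. *Ciita*, the coactivator, had 12, 16 and 17 counts in the WT libraries against 8 and 15 in the *Tet2/3* DKO libraries, with a log2 fold change of 0.02 ± 0.51. Scaled for depth it was at 0.46 to 0.67 CPM in WT, against 0.38 and 0.84 CPM in *Tet2/3* DKO libraries 1 and 2, so that these lay on either side of the WT range.

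Of 4 endosomal enzymes that trim the invariant chain or the antigen, 1 passed the threshold, and it fell, as 1.5% of all genes did. *Ifi30*, the thiol reductase GILT, was at 39.8 to 49.8 CPM in the WT libraries against 19.0 and 23.2 CPM in the *Tet2/3* DKO libraries (log2 fold change -1.12 ± 0.15, edgeR adjusted p = 0.0021). *Lgmn*, asparagine endopeptidase, was at -0.58 (edgeR adjusted p = 0.0132) and *Ctss*, cathepsin S, at -0.24 (edgeR adjusted p = 0.305). *Ctsl*, the remaining enzyme, went the other way. It was at 25.7 to 27.2 CPM in WT against 35.6 and 33.0 CPM in the *Tet2/3* DKO libraries (log2 fold change 0.38, edgeR adjusted p = 0.0819). *Ifi30* missed the threshold without WT library 1 (edgeR adjusted p = 0.0183) and without WT library 2 (0.0228).

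Markers of cells that carry these 10 transcripts were present at low levels, and their lists moved unequally between genotypes. Of 13 macrophage markers 6 could be tested and 1 passed by edgeR, with 4 higher and 1 lower at an unadjusted p under 0.05 and 4 called by DESeq2. The lower 1, *Cd163*, reached the filter in the WT libraries only, which fixed its direction. Without it 1 of 5 passed and 4 of 5 had an unadjusted p under 0.05. Over all genes, 3.92% passed by edgeR and 23% had an unadjusted p under 0.05 in either direction, and DESeq2 called 6.91% of the genes it tested. *C1qb*, *C1qa* and *C1qc*, the chains of complement C1q made by tissue macrophages, had log2 fold changes of 1.5, 1.7 and 1.65 (edgeR adjusted p = 0.0099, 0.0137 and 0.0127). *C1qb* missed the threshold when any 1 WT library was left out (0.0333 to 0.0563). Their summed level was 3.90 to 6.34 CPM in WT against 17.5 and 15.3 CPM in *Tet2/3* DKO libraries 1 and 2, so they did not share the excess of library 2 seen for the class II chains.

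The summed macrophage list was at 9.00 to 10.8 CPM in WT against 22.6 and 23.7 CPM in *Tet2/3* DKO cells. This sum includes the C1q chains, at 17.5 and 15.3 CPM in *Tet2/3* DKO libraries 1 and 2, so it is not separate from them. The macrophage markers outside C1q were not summed apart. *Cd68* was at 1.51 (edgeR adjusted p = 0.0700), and at 0.66 without *Tet2/3* DKO library 2. *Adgre1*, encoding F4/80, had 0, 4 and 1 counts in WT against 25 and 7 in *Tet2/3* DKO libraries, and *Cd163*, a scavenger receptor, went the other way with 48, 49 and 96 counts against 5 and 6. *Marco* and *Vsig4* were at 0 in all 5 libraries. The part of macrophage RNA in the *Lyz2*, *Csf1r* and class II values was not tested.

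Of 12 markers of conventional dendritic cells, 6 could be tested and 0 passed by edgeR, with 2 higher and 2 lower at an unadjusted p under 0.05 (23% of all genes in either direction) and 0 called by DESeq2. The summed level was 21.6 to 23.5 CPM in WT against 18.1 and 33.9 CPM in *Tet2/3* DKO libraries 1 and 2, most of it *Irf8* (log2 fold change 0.08), which T cells also express. The median log2 fold change of the 6 was -0.03. Both *Tet2/3* DKO libraries lay above every WT library for *Xcr1* (log2 fold change 1.47, edgeR adjusted p = 0.0341) and *Batf3* (3.69, 0.0132), and below every WT library for *Flt3* (22, 33 and 20 counts against 6 and 6) and *Ccl22* (21, 14 and 5 against 0 and 2). *Batf3* was at 5.18 without WT library 1, and its adjusted p was 0.0982 and 0.071 without WT library 2 and 3. It reached the filter in the *Tet2/3* DKO libraries only, and *Flt3* and *Ccl22* in the WT libraries only. *Sirpa* (4, 6 and 5 counts against 3 and 26) and *Cd209a* (0, 8 and 2 against 0 and 17), neither of them tested, and the tested *Zbtb46* (0.73 to 1.2 CPM against 0.48 and 1.34 CPM, edgeR adjusted p = 0.922) were highest in *Tet2/3* DKO library 2. They were not above the WT range in library 1, as was also the case for the class II chains *H2-Aa*, *H2-Ab1* and *H2-Eb1*. The part of dendritic cell RNA in those chains was not tested. Without *Irf8* the list was at 2.59 to 4.59 CPM in WT against 3.48 and 7.72 CPM in the *Tet2/3* DKO libraries.

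Of 7 markers of plasmacytoid dendritic cells 3 could be tested and 0 passed by edgeR (3.92% of all genes). At an unadjusted p under 0.05 there were 2 (23% of all genes), *Bst2* higher and *Tcf4* lower, and DESeq2 called 1 (6.91% of the genes it tested). The log2 fold changes were 0.56 for *Bst2*, -0.01 for *Ly6d* and -1.02 for *Tcf4*. The summed level was 130 to 168 CPM in WT against 268 and 169 CPM in the *Tet2/3* DKO libraries, nearly all *Bst2*, an interferon-induced gene of many cells. Without it the list was at 9.21 to 12.6 CPM in WT against 8.06 and 7.44 CPM in *Tet2/3* DKO cells, most of which is *Tcf4* and *Ly6d*, genes of other lymphoid cells as well. *Siglech*, a more specific marker that had too few counts to be tested, went the other way with 0, 0 and 0 counts in WT against 8 and 5 in *Tet2/3* DKO libraries, and *Klk1* had 1, 0 and 0 against 16 and 0.

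Of 12 monocyte and neutrophil markers, 1 could be tested. *Ccr2*, a chemokine receptor of monocytes that activated T cells also express, had 122, 100 and 118 counts in the WT libraries against 437 and 1270 in the *Tet2/3* DKO libraries and passed the threshold (log2 fold change 3.36, edgeR adjusted p = 0.00225), although not without any 1 WT library (0.0154 to 0.0333). Its log2 fold change was 4.0 without *Tet2/3* DKO library 1 and 2.22 without library 2. The other 11 summed to 0.29 to 0.33 CPM in WT against 0.38 and 1.01 CPM in the *Tet2/3* DKO libraries, 3 of them were at 0 in every library and 8 of the 12 had at most 3 counts in each. *Ngp* had 7, 5 and 5 counts against 2 and 1, and *Fcgr4* 0, 2 and 1 against 4 and 2. Among 6 myeloid transcription factors 4 could be tested and 0 passed by edgeR (3.92% of all genes). At an unadjusted p under 0.05 there were 2 (23% of all genes), and DESeq2 called 0 (6.91% of the genes it tested). Beside *Irf8*, *Cebpb* was at a log2 fold change of 1.81 and *Klf4* at 0.86 (edgeR adjusted p = 0.122 and 0.334). *Cebpb* had 5, 6 and 17 counts against 39 and 11, was at 0.75 without *Tet2/3* DKO library 1 and at 2.32 without library 2, and shares 312 of its 1504 exonic bases with a gene on the opposite strand.

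Markers of B cells and of thymic epithelium, both class II positive, were measured as well. Of 12 B cell markers 7 could be tested and 1 passed (3.92% of all genes), *Ighm* (log2 fold change 0.92, edgeR adjusted p = 0.000949), the immunoglobulin μ locus, which also gives transcripts in thymocytes. At an unadjusted p under 0.05 there were 3 (23% of all genes), and DESeq2 called 1 (6.91% of the genes it tested). *Cd22* (2, 7 and 10 counts in WT against 13 and 30) reached the filter in the *Tet2/3* DKO libraries only. Without it 1 of 6 passed and 2 of 6 had an unadjusted p under 0.05. Without WT library 2 or 3 *Ighm* missed the threshold (edgeR adjusted p = 0.0142 and 0.0139). The other 11 summed to 8.55 to 9.58 CPM in WT against 11.6 and 15.2 CPM in the *Tet2/3* DKO libraries, with *Cd79b* at a log2 fold change of 0.75 (edgeR adjusted p = 0.0988). The named genes did not move alike. *Tet2/3* DKO library 2 was the highest of the 5 for *Igkc* (33, 13 and 12 counts in WT, 4 and 54 in *Tet2/3* DKO) and *Pax5* (0, 0 and 1 against 0 and 8). *Cd79b* was higher in *Tet2/3* DKO library 1 than in library 2 (7.34 and 5.32 CPM), *Cd79a* was below every WT library (45, 48 and 87 counts against 32 and 25) and *Vpreb3* had its fewest counts in *Tet2/3* DKO library 2 (20, 29 and 18 against 22 and 7). The part of B cell RNA in the class II values was not tested.

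Of 11 thymic epithelial markers 6 could be tested and 0 passed by edgeR (3.92% of all genes). At an unadjusted p under 0.05 there were 4 (23% of all genes), and DESeq2 called 1 (6.91% of the genes it tested). Of the 4, *Epcam* was higher. *Prss16*, *Krt8* (20, 46 and 27 counts in WT against 4 and 4) and *Psmb11* (39, 22 and 18 against 1 and 0) were lower. *Krt8* and *Psmb11* reached the filter in the WT libraries only, which fixed their direction, and without them 2 of 4 had an unadjusted p under 0.05. The summed level was 33.4 to 38.0 CPM in WT against 27.7 and 50.1 CPM in the *Tet2/3* DKO libraries. Here too *Tet2/3* DKO library 2 was high, and the excess was in *Epcam*, an adhesion molecule of epithelial cells, at 8.24 to 10.8 CPM in WT against 10.4 and 33.8 CPM in *Tet2/3* DKO cells. *Ccl25* was at a log2 fold change of -0.15 and *Prss16*, a protease of cortical epithelium, at -1.47 (edgeR adjusted p = 0.0148). Without *Epcam* the list was at 22.6 to 27.9 CPM in WT against 17.3 and 16.3 CPM in the *Tet2/3* DKO libraries.

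**Figure D4:**
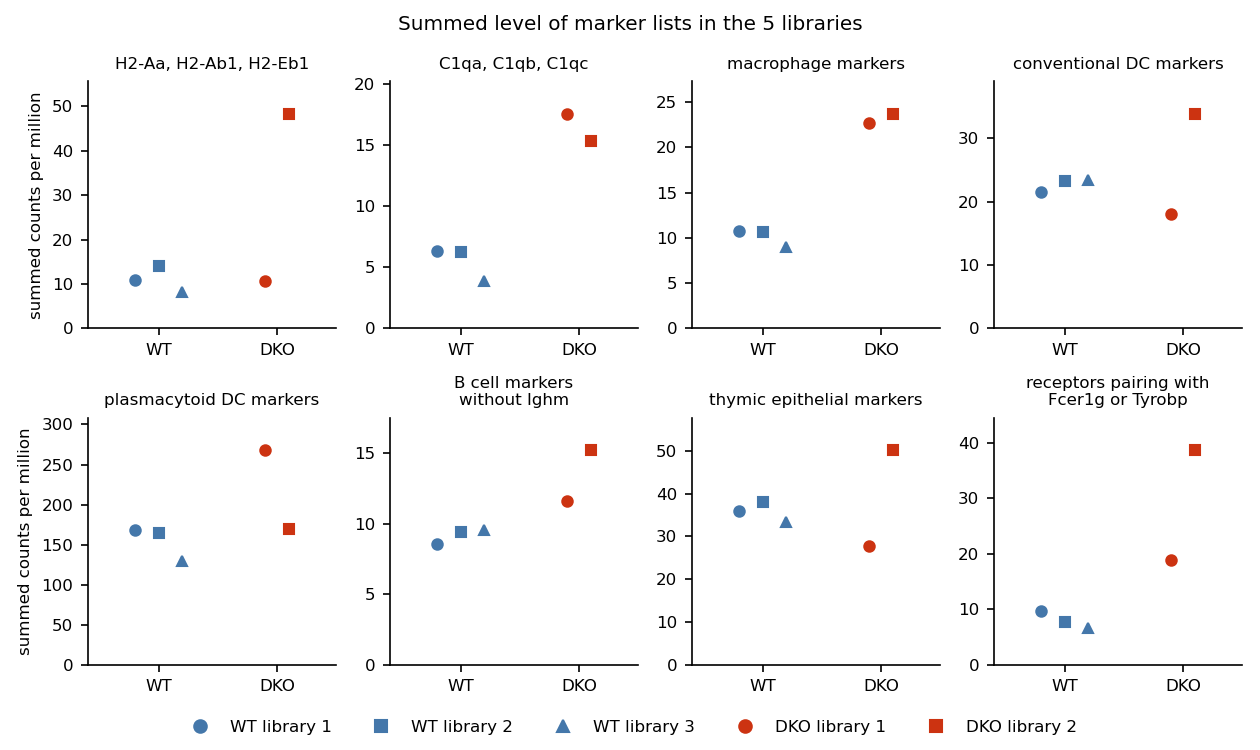
Summed CPM (vertical axes, each from 0) of the class II chains *H2-Aa*, *H2-Ab1* and *H2-Eb1* and of marker lists in the 3 WT libraries (blue) and 2 *Tet2/3* DKO libraries (red). The class II sum is high in *Tet2/3* DKO library 2 only, whereas the C1q and macrophage sums are about equal in both *Tet2/3* DKO libraries and above every WT library. The macrophage sum includes the C1q chains.

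The adaptors were also set beside the receptors that need them. Of 16 receptors that pair with FcRγ or DAP12, 6 could be tested and 3 passed, all higher in *Tet2/3* DKO cells, where 2.42% of all genes were. *Ncr1* and *Cd300lb* reached the filter in the *Tet2/3* DKO libraries only, which fixed their direction, and without them 1 of 4 passed. *Ncr1*, encoding the NK receptor NKp46, had 1, 0 and 0 counts in WT against 31 and 40 in *Tet2/3* DKO libraries (edgeR adjusted p = 0.00169), a pooled ratio of 141 with a 95% counting interval of 24.5 to 5638. *Klrb1c*, encoding NK1.1, had 61, 39 and 43 counts against 144 and 318 (log2 fold change 2.7 ± 0.43, edgeR adjusted p = 0.00513). It shares 413 of its 2961 exonic bases with an overlapping gene model on the same strand.

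*Cd300lb*, an activating receptor of myeloid cells, had 0, 1 and 3 counts in WT against 27 and 26 in *Tet2/3* DKO libraries and rose by 4.58 ± 0.66 on the log2 scale (edgeR adjusted p = 0.00116). *Fcgr3*, the low affinity IgG receptor, was at 0.75 (edgeR adjusted p = 0.195). Summed over the list, the receptors were at 6.70 to 9.67 CPM in WT against 18.8 and 38.7 CPM in *Tet2/3* DKO libraries 1 and 2. Single receptors did not all follow that sum. *Klrk1*, encoding NKG2D, was at 1.55 to 2.08 CPM in WT against 1.05 and 9.51 CPM in *Tet2/3* DKO libraries 1 and 2 (log2 fold change 1.41, edgeR adjusted p = 0.262). Without any 1 WT library, *Ncr1*, *Klrb1c* and *Cd300lb* each missed the threshold (edgeR adjusted p = 0.0122 to 0.0497). Without *Tet2/3* DKO library 2 *Klrb1c* was at 1.87, and without WT library 3 *Cd300lb* was at 5.73.

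Of the other ITAM chains, related adaptors and kinases, 0 of 7 passed the edgeR threshold (3.92% of all genes). At an unadjusted p under 0.05 there was 1 (23% of all genes), and DESeq2 called 1 (6.91% of the genes it tested). *Cd247*, encoding the ζ chain of the T cell receptor complex, lay below every WT library, with a log2 fold change of -0.46 (edgeR adjusted p = 0.0134), and shares 3007 of its 5329 exonic bases with a gene on the opposite strand. *Cd3g*, *Cd3d* and *Cd3e*, which encode other ITAM chains of that complex, were at log2 fold changes of 0.04, 0.14 and -0.13. *Hcst*, encoding the related adaptor DAP10, was at 0.11, *Zap70* at 0.13 and *Syk*, the kinase of myeloid and B cells, had 6, 2 and 17 counts in WT against 6 and 11 in *Tet2/3* DKO libraries. Genes of innate-like and cytotoxic T cells rose in 6 of 10 cases, against 2.42% of all genes, namely *Zbtb16*, *Eomes*, *Nkg7*, *Cd160*, *Klrd1* and *Xcl1* (the last 2 missed the threshold without WT library 2 or 3, and *Xcl1* also without WT library 1), and *Il2rb* was at 0.39 (edgeR adjusted p = 0.148). Their summed level was 249 to 272 CPM in WT against 709 and 1108 CPM in the *Tet2/3* DKO libraries. It moved with the adaptors and receptors, and its part in their values was not tested. Of the CD8 coreceptor genes, *Cd8b1* fell by 1.29 on the log2 scale (edgeR adjusted p = 0.000168) and *Cd8a*, whose product also marks some dendritic and innate-like cells, was at 0.94 (edgeR adjusted p = 0.128).

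Levels can be compared between genes only per length, for which TPM (counts over exonic length, scaled to the same total in each library) were computed. On that scale *Cd74* was at 117 ± 25.6 TPM (SD, n = 3) in WT and *Lyz2* at 19.5 ± 6.10 TPM. *H2-Ab1* was next at 5.55 ± 1.11 TPM, *Fcer1g* at 4.15 ± 1.44, *H2-Eb1* at 3.79 ± 0.93, *Tyrobp* at 2.97 ± 1.47 and *H2-Aa* at 2.68 ± 1.29 TPM, and neighbors among these 5 differed by less than the larger of their SDs. *Spi1* (0.49 TPM), *Csf1r* (0.064 TPM) and *Itgax* (0.014 TPM) were lowest.

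In the *Tet2/3* DKO libraries *Cd74* was again highest at 145 ± 36.3 TPM (SD, n = 2), followed by *Lyz2* at 65.3 ± 38.2 and *H2-Ab1* at 17.8 ± 16.6 TPM. The ratio of *Cd74* to *H2-Ab1* in TPM was 21.5, 14.5 and 29.9 in the WT libraries, 19.8 in *Tet2/3* DKO library 1 and 5.78 in library 2. The balance of invariant chain to class II beta chain was thus within the WT range in library 1 and below it in library 2. The ratio of *H2-Ab1* to *H2-Aa* was 1.71 to 3.43 in WT against 3.41 and 2.98 in the *Tet2/3* DKO libraries, inside the WT range. The ratio of *Tyrobp* to *Fcer1g* was 0.22 to 1.25 in WT against 0.83 and 0.77 in *Tet2/3* DKO cells, and that of *H2-DMa* to *H2-Ab1* was 12.2 to 18.7 in WT, 55.1 in *Tet2/3* DKO library 1 and 11 in library 2.

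The genes with profiles most like those of the 9 tested genes were found among 11560 genes with a mean log2 CPM of at least 0, by the root mean square (RMS) difference of centered log2 CPM over the 5 libraries. With 5 points from the same libraries, close matches arise among so many genes, and these names are a description. *H2-Aa* was closest to *Snx9*, *Pou2af1* and *H2-Eb1* (RMS 0.22 to 0.30), and *H2-Eb1* to *Anxa2*, *Pou2af1* and *Dock4* (0.17 to 0.19), so that *Pou2af1*, a coactivator of B cells, was near both. *H2-Ab1* was closest to *Fut7*, *Podnl1* and the T cell receptor segment *Trav10d* (0.15 to 0.18). *Cd74*, with its flat profile, was closest to *Alkbh2*, *Cbx8* and *Zfp933* (0.049 to 0.070).

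*Spi1* was closest to *Lyz2* (RMS 0.16), followed by *Emp1* and *Phf19*, and *Lyz2* to *Nt5e*, *Ctsh* and *Phf19* (0.16 to 0.20). *Csf1r* was closest to *Bmf*, *Pla2g2d* and *5830411N06Rik* (0.15 to 0.36). *Fcer1g* was closest to *Klra9*, *Aif1* and *Ahnak* (0.15 to 0.19), of which *Klra9* is an NK receptor gene and *Aif1* a gene of macrophages. *Tyrobp* was closest to *Col15a1*, *Sept4* and *Mfsd2a* (0.10 to 0.27). No class II chain was among the 3 nearest genes of a myeloid gene or an adaptor.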

How the data were processed

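RNA from 5 libraries of sorted CD4 SP thymocytes, 3 WT and 2 *Tet2/3* DKO, was prepared with the SMART-seq v4 kit and Nextera XT, which do not mark strand. The authors trimmed reads with fastp 0.21.0, aligned them with STAR 2.7.5a to mm10 and deposited raw counts of reads per gene for each library, unpooled. The deposited T cell receptor clonotype tables were not used here. Groups and replicate numbers follow the labels. Symbols, positions and exonic lengths come from GENCODE M21, in which 55227 of 55487 gene identifiers were found. Reads that matched no gene stayed out of library sizes. As a share of the library they were 5.7% in *Tet2/3* DKO library 1 and 3.51% to 3.72% in the others.

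The unstranded counts entered edgeR 4.0.16 in R 4.3.3 (quasi-likelihood test, TMM scaling, filterByExpr by genotype, Benjamini-Hochberg adjustment over all 13525 tested genes, threshold 0.01, genotype as the single term). DESeq2 1.42.0 was an alternative, as were other scaling, filters, dispersion settings, strand columns, a replicate block and left-out libraries. Both tools were tested on simulated data. Errors of log2 fold changes are standard errors. CPM are scaled by TMM factors, and log2 CPM carry a prior count of 2. Intervals of ratios are 95% exact binomial intervals. With 3 against 2 mice, p-values rest on few animals.

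The 10 genes and the 15 other gene lists were chosen with earlier results of these data known. From each list, the genes past the threshold and the 3 with the highest TPM are named, with the 3 most similar genes of each of the 10. *Ciita*, *Lgmn*, *Ctsl*, *C1qa*, *Adgre1*, *Cd163*, *Pax5*, *Cd22*, *Igkc*, *Hcst*, *Syk*, *Zap70*, *Xcr1*, *Batf3*, *Flt3*, *Ccl22*, *Sirpa*, *Cd209a*, *Zbtb46*, *Siglech*, *Klk1*, *Klrk1*, *Krt8*, *Psmb11*, *Thy1*, *Cd79a*, *Vpreb3*, *Cd247*, *Marco* and *Vsig4* were named after their values were seen. The replicate numbers of the labels belong to different mice and pair no libraries.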

Additional observations from a re-analysis of the deposited data

How the results depend on the processing

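The limits of these results lie in the number of mice and in depth. With 2 *Tet2/3* DKO mice that differ from each other, few animals stand behind each value, and *Csf1r*, *Spi1* and *Itgax* have so few counts that changes in them are poorly resolved. Among 13525 genes, 530 passed an adjusted p of 0.01 by edgeR. The count was 1173 at 0.05, 1027 with DESeq2 and 1345 without both libraries at odds with their label of sex, and 110 to 1311 when 1 library was left out. With the replicate number as a block it was 358 (the deviations of same-numbered libraries from their group means correlated at 0.0151 and 0.00446, so the numbers do not pair the libraries). Of the 9 tested members of the 10 genes, 0 passed at 0.01, 2 at 0.05, 7 without both libraries at odds with their label of sex and 0 to 5 when 1 library was left out, and 0 with the block. Of 1297 fold changes of single genes under the alternatives, 35 changed direction. The cause was not tested. Where a single *Tet2/3* DKO library remained, it was assumed to vary like the WT libraries. Leaving out 1 library at a time gave log2 fold changes of -0.51 to 1.91 for *H2-Aa*, -0.12 to 1.76 for *H2-Eb1*, -0.10 to 0.060 for *Rfxap*, -0.065 to 0.13 for *Nfyb*, -0.62 to 0.52 for *Ciita*, -0.41 to 0.45 for *Irf8*, -1.02 to 0.48 for *Zbtb46*, -0.86 to 2.33 for *Klrk1*, -0.18 to 0.19 for *Ly6d*, -1.14 to 0.25 for *Vpreb3*, -1.97 to 1.99 for *Igkc*, -0.16 to 0.19 for *Cd3g*, -0.027 to 0.27 for *Cd3d*, -0.19 to 0.91 for *Syk*, -0.24 to 0.077 for *Trac*, -0.028 to 0.38 for *Cbx8*, -0.0078 to 0.59 for *Zfp933*, -0.30 to 1.62 for *Snx9*, -0.33 to 2.05 for *Pou2af1*, -0.30 to 1.67 for *Anxa2* and -0.10 to 1.52 for *Dock4*. Without both libraries at odds with their label of sex, *Zbtb46* was at 0.66, *Nfyc* at -0.0038, *Cd3g* at -0.12 and *Cd3d* at -0.020. With the block, *Rfxap* was at 0.029 and *Ly6d* at 0.19. *Ciita* was at -3.5e-05 without the filter on low counts and at -0.22 with the strands counted apart.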
